A study of Homo sapiens with 6 samples.

Results

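Cell cycle and DNA replication genes were examined as 1 group of 53 genes, of the 20045 genes with a probe of their own on the Illumina HumanHT-12 V4.0 array, and were taken by gene symbol with every probe annotated to them. The list separates into 29 genes of DNA replication and G1/S control and 24 mitotic genes. The arrays were hybridized with RNA from PEO4, a cell line derived from high-grade serous (HGS) ovarian cancer, infected with lentivirus and selected on puromycin. The 6 arrays form 3 groups of 2: cells with a nonspecific (NS) shRNA, cells with SHMT1 shRNA F11 and cells with SHMT1 shRNA F12. All groups carry the same vector selection and were grown in the same serum-containing medium, so the hairpin is the only labelled difference. The sources do not say whether the replicates of a group were separate cultures, and the p-values therefore measure the spread between these arrays, which may be technical. The study asks what loss of SHMT1, the cytosolic enzyme that moves a one-carbon unit from serine onto folate, does to ovarian cancer cells.

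A cell copies its DNA once per cycle. Origins are licensed in G1, when ORC, CDC6 and CDT1 load the ring of MCM2 to MCM7, and fired in S phase, when CDC45 and the GINS proteins turn that ring into a moving helicase and PCNA, clamp loaders and polymerases follow it. E2F factors drive the transcription of this set. The mitotic set, which includes cyclin B, the Aurora and Polo kinases, the checkpoint proteins, spindle motors and centromere proteins, is transcribed later, in G2, largely under FOXM1 and MuvB complexes. One-carbon units made from serine are used for thymidylate and purines, the building blocks that replication consumes.

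SHMT1 itself measured 542 and 544 on the NS arrays, 291 and 342 with F11 and 434 and 442 with F12 (normalized intensity). All 4 SHMT1 shRNA arrays lay below the NS arrays. F11 changed it by -0.78 on the log2 scale (limma, adjusted p = 0.00535) and F12 by -0.31 (adjusted p = 0.214). Without NS replicate 1 or 2 the adjusted p with F11 was 0.0544 or 0.0586. Log2 intensities correlated at 0.9939 to 0.9973 within a group and 0.9882 to 0.9953 between groups, across probes. All 9 markers of serous ovarian carcinoma, among them PAX8, WT1 and EPCAM, lay above background on every array. Of other cell types, 0 of 6 fibroblast, 0 of 4 endothelial and 2 of 5 measured leukocyte markers did so, the last being CD14 and CD68, while the pan-leukocyte gene PTPRC was below background on all arrays. The summed intensity of the leukocyte list was 765 to 872 in NS, 800.4 to 899 with F11 and 683 to 713 with F12, and its part in the results that follow was not tested. On bulk arrays, a smaller share of cells in a phase and less RNA per cell cannot be told apart.

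Of the 53 genes, 52 had a probe above background on at least 2 arrays and were tested, 50 of them with a probe above background on all 6. CCNE2, the second E-type cyclin, read 78.6 to 83.2 on all arrays, below the background limit of 91.6, and has no measured level here. GINS1 and CDC6 were above that limit on 3 and 5 arrays. For GINS1 these were F11 replicate 2 (100) and both F12 arrays (93.4 and 94.3), while NS read 88.6 and 88.7. It was thus tested only through SHMT1 shRNA arrays, and the filter favoured a higher value there. Each gene is represented by its brightest tested probe, and 21 genes had several.

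The mitotic genes as a group stood higher with F11 than in either of the other groups. Their median log2 intensity relative to the NS mean was 0.16 and 0.20 on the F11 arrays and -0.01 and 0.03 on the F12 arrays. The replication and G1/S genes had medians of 0.07 and 0.07 with F11 and 0.07 and 0.08 with F12, and its 4 SHMT1 shRNA arrays all lay above both NS arrays. Over all 12852 tested genes the median of every array lay within 0.01 of the NS mean, which the quantile normalization of the arrays largely set in advance.

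**Figure D1:**
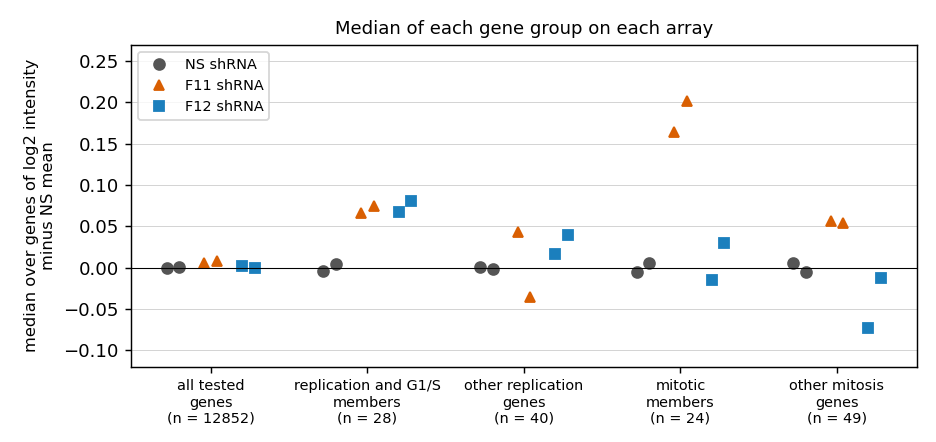
Median over the genes of a group of the log2 intensity minus the mean log2 intensity of the NS arrays (vertical axis), with 1 point per array, for all tested genes, the members of both classes and other genes of the same pathways. The mitotic members stand at 0.16 and 0.20 on the F11 arrays and near 0 on the F12 arrays, whereas the replication members stand at 0.07 to 0.08 on all 4 SHMT1 shRNA arrays.

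With F11 against NS, 2 of 52 genes rose and 0 fell by limma at an adjusted p under 0.05. Over all tested genes 1.84% rose and 1.76% fell in that comparison. Before adjustment p was under 0.05 for 16 members that were higher, 12 of them mitotic, and 0 that were lower, against 10.6% and 8.38% of all genes. Both that rose are mitotic. BIRC5 encodes survivin, the subunit of the chromosomal passenger complex that also blocks caspases. It measured 1011 and 943 on the NS arrays, 1215 and 1365 with F11 and 1080 and 1062 with F12. Both F11 arrays were above all 4 others. F11 raised it by 0.40 on the log2 scale (standard error 0.074, adjusted p = 0.0413), and F12 minus NS was 0.13 (adjusted p = 0.569). The dimmer of its probes gave 0.12 with F11 (adjusted p = 0.465).

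KIF20A encodes a kinesin of the central spindle needed for cytokinesis. It measured 556 and 612 on the NS arrays, 736 and 866 with F11 and 652 and 660 with F12. The groups did not overlap, with NS lowest, F12 between and F11 highest. F11 raised it by 0.45 on the log2 scale (standard error 0.089, adjusted p = 0.0493), and F12 minus NS was 0.17 (adjusted p = 0.548). Both calls were lost when 1 array was left out, except F11 replicate 1. Without NS replicate 1 the adjusted p was 0.135 for BIRC5 and 0.265 for KIF20A, without NS replicate 2 it was 0.221 and 0.139, without F11 replicate 2 it was 0.09 and 0.0905, and without either F12 array it was 0.117 and 0.135. Without F11 replicate 1 it was 0.0206 and 0.014, and CENPA (0.0477) and MCM4 (0.0475) passed as well.

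AURKA, the kinase of centrosomes and spindle poles, has a pair of probes of similar brightness. The brighter one measured 1065 and 1096 on the NS arrays, 1244 and 1278 with F11 and 1058 and 1022 with F12. The dimmer one measured 954 and 883 in NS, 1144 and 1192 with F11 and 830.1 and 884 with F12. At both probes the F11 arrays were above all others and the F12 arrays overlapped or lay just under NS. Between the hairpins, F12 minus F11, the brighter probe differed by -0.28 on the log2 scale (standard error 0.0564, adjusted p = 0.0343) and the dimmer by -0.45 (adjusted p = 0.0119). AURKA was thereby the 1 member of 52 that differed between F12 and F11, where 0 were higher and 1 was lower, against 3.45% of all genes higher and 4.12% lower. With F11 against NS the brighter probe missed the threshold (0.22, adjusted p = 0.106) and the dimmer passed it (0.35, adjusted p = 0.0467), a call lost without any 1 of the arrays (0.0565 to 0.2404). The brighter probe's difference between hairpins lost its call without any 1 of the arrays (adjusted p 0.0648 to 0.230), while the dimmer lost it only without F12 replicate 1 (0.121) or F12 replicate 2 (0.0744).

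**Figure D2:**
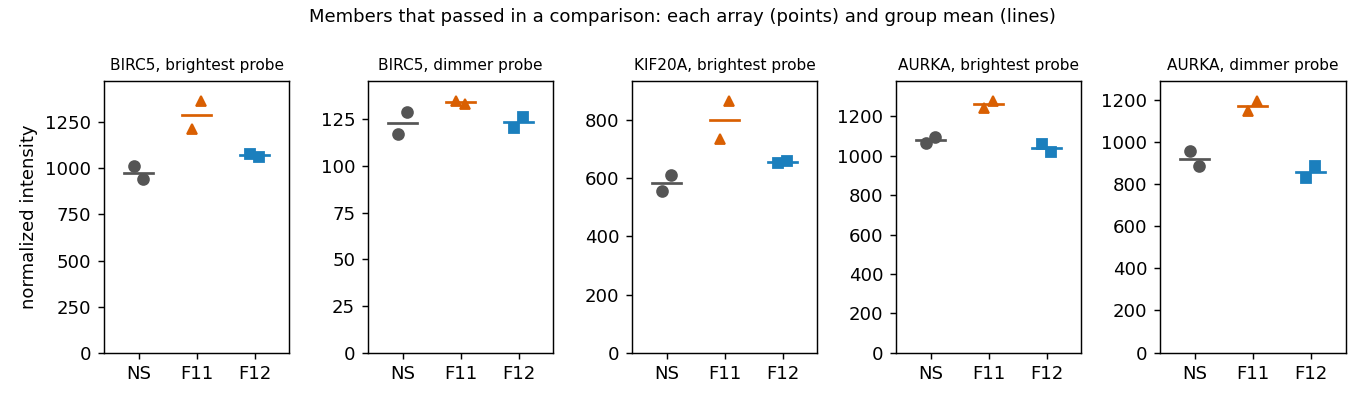
Normalized intensity (vertical axis, from 0) of each probe of the 3 genes that passed in a comparison, with 1 point per array and a line at each group mean (n = 2). F11 is the highest group at every probe, and the dimmer BIRC5 probe, at 117 to 135, shows a smaller separation than the brighter one.

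The spindle, centromere and chromosome genes were the most uniform subgroup of the members with F11. With F11, all 8 (KIF11, KIF20A, CENPA, CENPF, TPX2, BIRC5, TOP2A and MKI67) had both arrays above both NS arrays, with log2 fold changes of 0.20 to 0.45 and a median of 0.26. Of all tested genes 24.4% had both F11 arrays above NS and 20.3% had both below. The same 8 genes had a median of 0.08 with F12, where 3 of 8 stood clear above NS, as did 24% of all tested genes. Of the 52 members, 27 stood above NS with F11 (51.9%) and 1, GINS2, stood below. The 27 include GINS1, which the filter favoured in that direction.

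MKI67, the proliferation antigen of pathology, measured 96.3 and 106 on the NS arrays, 118 and 116 with F11 and 107 and 110.3 with F12. The groups did not overlap, in the order NS, F12, F11, but all values were close to background and F11 minus NS was 0.21 on the log2 scale (adjusted p = 0.17) and F12 minus NS 0.11 (adjusted p = 0.588). CENPA, the histone that marks centromeres, measured 374 and 371 in NS, 423 and 484 with F11 and 356 and 384 with F12. Its F11 arrays lay above all others (log2 fold change 0.28, adjusted p = 0.137), and its second probe gave 0.19. KIF11, the motor that separates the spindle poles, had 0.22 at its brighter probe and -0.01 at its dimmer one, where the F11 arrays, at 223 and 164, stood on either side of NS. TOP2A, which untangles sister chromatids, gave 0.24 (adjusted p = 0.171), TPX2, the activator of AURKA on spindle microtubules, 0.29 (adjusted p = 0.271), and CENPF, a protein of the kinetochore, 0.20 (adjusted p = 0.13).

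**Figure D3:**
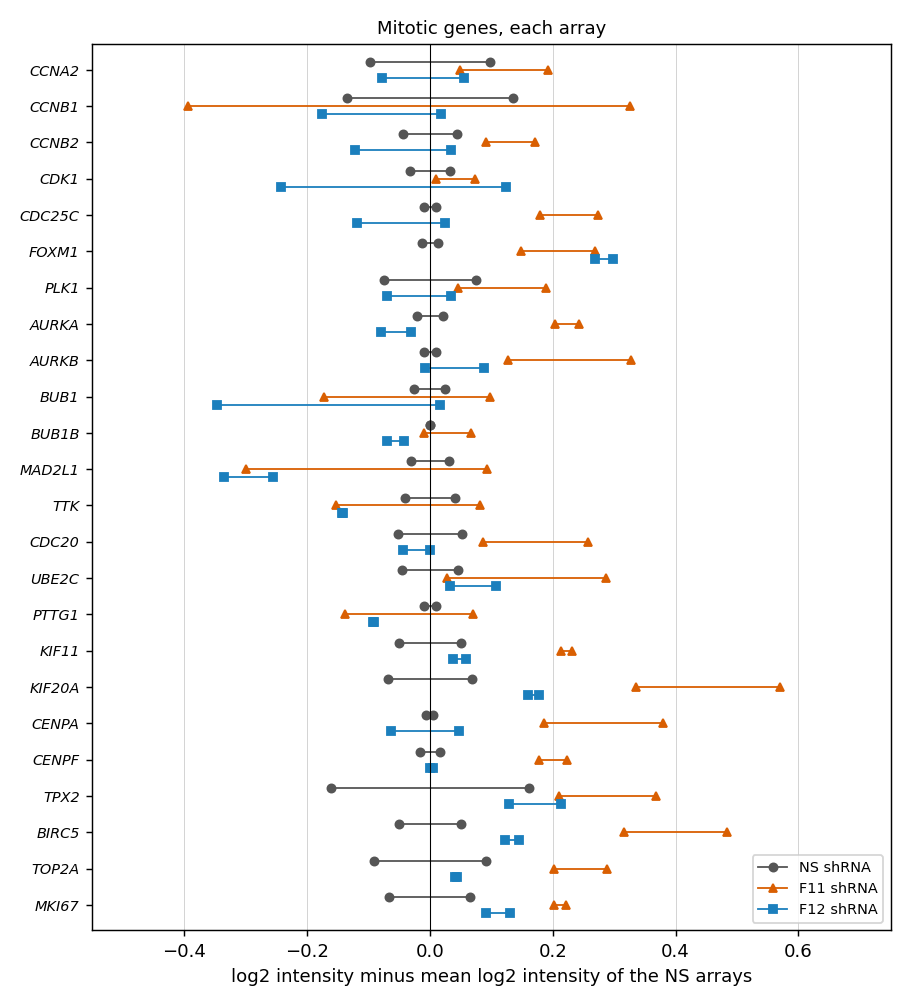
Log2 intensity minus the mean log2 intensity of the NS arrays (horizontal axis) for the 24 mitotic genes (rows), with 1 point per array and a line joining the replicates of a group. F11 lies to the right of F12 for most genes, and for the 8 spindle, centromere and chromosome genes at the bottom both F11 points lie to the right of both NS points, while CCNB1, BUB1, MAD2L1 and TTK have widely spread F11 replicates.

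At their brightest probes the mitotic kinase and cyclin B1 overlapped between all groups. CDK1, the mitotic kinase, measured 585.5 and 613 in NS, 630.5 and 603.5 with F11 and 506 and 652 with F12. The F12 replicates enclosed NS, and the log2 fold changes were 0.04 with F11 and -0.06 with F12. Its dimmer probe measured 178 and 176 in NS, 192 and 196 with F11 and 181 and 211 with F12, all 4 above NS, with 0.13 and 0.14. CCNB1, its cyclin B1 partner, measured 342 and 284 in NS, 391 and 237 with F11 and 276 and 315 with F12. The F11 replicates enclosed every other array, and its 95% interval between F11 and NS ran from -0.54 to 0.47 on the log2 scale. CCNB2 gave 0.13, CCNA2 0.12 and the CDK1-activating phosphatase CDC25C 0.23 with F11, with adjusted p from 0.175 to 0.621, and AURKB and PLK1 gave 0.23 and 0.12. The other CDC25C probes gave 0.03 and 0.11 with F11.

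The 4 spindle assembly checkpoint genes BUB1, BUB1B, MAD2L1 and TTK separated the F11 replicates. Their median relative to NS was 0.09 on F11 replicate 1, with 4 of 4 above the NS mean, and -0.16 on F11 replicate 2, with 0 of 4 above. With F12 all 4 had negative log2 fold changes (-0.06 to -0.30). MAD2L1, which holds back the anaphase-promoting complex until chromosomes are attached, measured 608.5 and 636 in NS, 663 and 505 with F11 and 493 and 521 with F12. Both F12 arrays were below both NS arrays, with a log2 fold change of -0.30 (unadjusted p = 0.0403, adjusted p = 0.416). Of the anaphase-promoting complex genes, its activator CDC20 gave 0.17 and its ubiquitin-conjugating enzyme UBE2C 0.16 with F11 (0.01 at its dimmer probe). Securin, PTTG1, gave -0.03 with F11 and -0.09 with F12. Its dimmer probe gave -0.10 and -0.31 (limma, adjusted p = 0.647 and 0.2), with all 4 SHMT1 shRNA arrays below both NS arrays.

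FOXM1, the forkhead factor that activates mitotic genes, was the exception among the mitotic members. It measured 286 and 280.4 on the NS arrays, 314 and 341 with F11 and 348 and 341 with F12. All 4 SHMT1 shRNA arrays were above NS, and F12 was at or above F11. F11 minus NS was 0.21 on the log2 scale (adjusted p = 0.166) and F12 minus NS 0.28 (adjusted p = 0.146), and its second probe gave 0.16 and 0.21.

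Set directly against F11, F12 had lower values for 23 of 24 mitotic genes, with a median of -0.15, and FOXM1 was the one with a positive difference (0.07). The log2 differences of this comparison do not use the NS arrays. Its p-values do, because limma took the spread from all 3 groups. Both F12 arrays were below both F11 arrays for 14 of 24 mitotic genes, where 26.9% of all tested genes were so, and above for 1, where 24.5% were so. Unadjusted p was under 0.05 for 11 mitotic genes, all lower with F12 (CCNB2, CDC25C, AURKA, AURKB, CDC20, KIF11, KIF20A, CENPA, CENPF, BIRC5 and TOP2A), and 13.1% of all genes were lower at that level. AURKA alone passed after adjustment, while without F11 replicate 1 it was BIRC5, CENPA and KIF20A that passed and without F11 replicate 2 it was MAD2L1. Leaving out each array in turn left 19 to 23 of 24 with a lower value in F12. At several probes per gene the sign differed between probes for CDK1, UBE2C and KIF11 and was the same at every probe for the other 7 mitotic genes that had them.

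**Figure D4:**
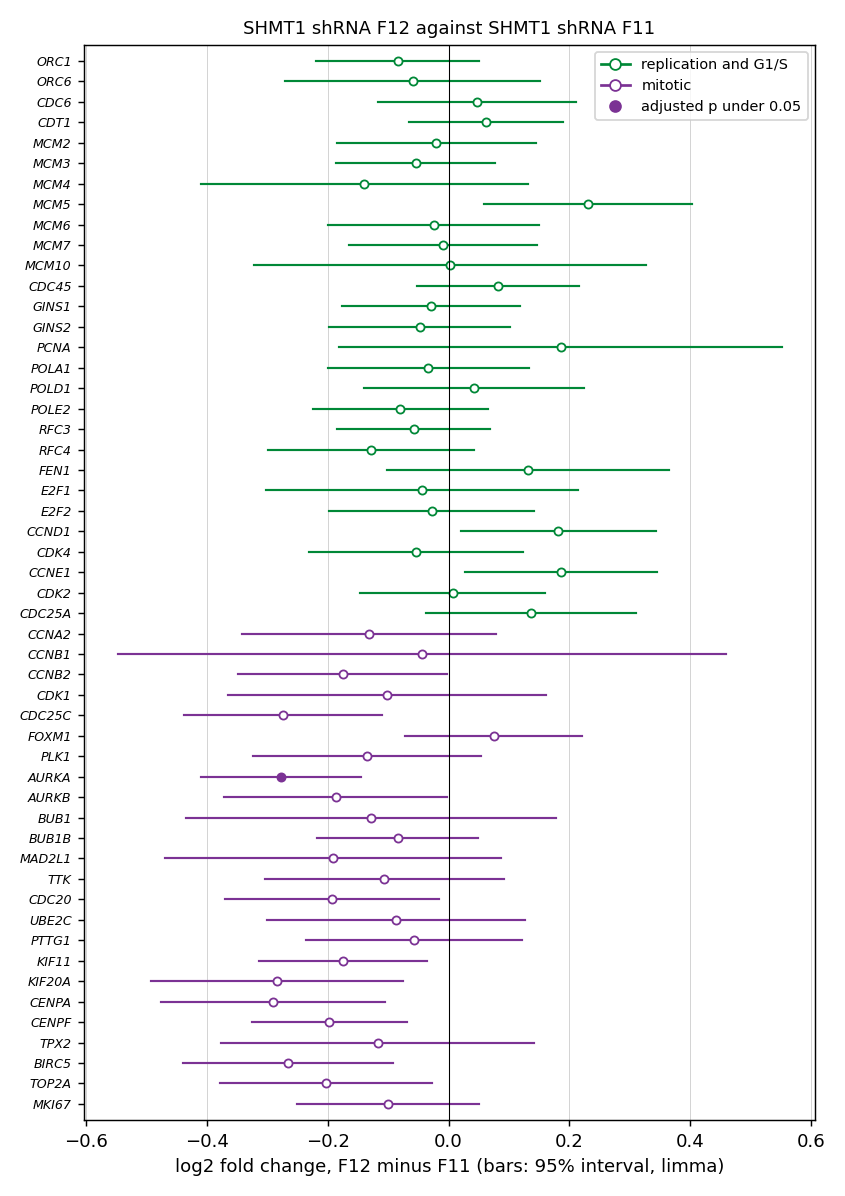
Log2 fold change of F12 minus F11 (horizontal axis) for the 52 tested genes (rows), with bars for the 95% interval from limma (2 arrays per group), replication and G1/S genes in green and mitotic genes in purple. The mitotic genes lie left of 0 except FOXM1, AURKA is the filled point that passed, and the replication genes lie on both sides of 0.

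Promoter sequences of many of these genes carry the elements for which the classes are known. They are shown here because the mitotic and replication classes had different medians with F11. RefSeq promoter windows (GRCh38.p14, 250 bases before and 50 after the start) were matched for 42 of the 53 genes, 24 of replication and G1/S control and 18 mitotic, in 54 windows. MCM4, MCM5, CCND1, CCNE2, CDK2, FOXM1, AURKA, TTK, UBE2C, TPX2 and BIRC5 were not matched. The CHR element (TTTGAA on either strand) is read in mitotic promoters by MuvB complexes. Only this exact sequence was searched, and a window said to have no CHR lacks it. It was in a window of 12 of 18 mitotic genes and 0 of 24 replication genes. By window the shares were 58.3% and 0%, beside 15.2% of all 35116 windows. The CCAAT box (CCAAT on either strand), the NF-Y element, was in 17 of 18 mitotic and 14 of 24 replication genes. By window it was in 87.5% and 60%, beside 34.6% of all windows. The longer E2F site (TTCGCGC or TTGGCGC on either strand) was in 3 of 18 mitotic and 12 of 24 replication genes. By window it was in 16.7% and 43.3%, beside 5.06% of all windows. The shorter E2F core (GGCGGG on either strand) was in 14 of 18 and 19 of 24 genes. By window it was in 83.3% and 76.7%, beside 45% of all windows. A match is a description of the letters in these windows and not of binding.

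The 160 bases before the start are printed for 3 spindle and centromere genes and 2 replication genes, 5′ to 3′ on the strand of the gene, with CHR, CCAAT and longer E2F matches in capitals. KIF20A (chr5:138178952-138179111, plus strand) has a pair of CCAAT boxes read as ATTGG and no CHR in the window, KIF11 (chr10:92592970-92593129, plus strand) and CENPA (chr2:26785896-26786055, plus strand) have a CHR at -28 and -18 from the start and a CCAAT box upstream of it, E2F2 (chr1:23531234-23531393, minus strand) has 1 longer E2F site at -41, and MCM6 (chr2:135876444-135876603, minus strand) has 4 that overlap in pairs, with CCAAT boxes at -100 and -58.
KIF20A: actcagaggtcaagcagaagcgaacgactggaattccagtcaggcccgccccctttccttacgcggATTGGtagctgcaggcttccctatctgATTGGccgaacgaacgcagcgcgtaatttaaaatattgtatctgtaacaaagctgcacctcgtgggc
KIF11: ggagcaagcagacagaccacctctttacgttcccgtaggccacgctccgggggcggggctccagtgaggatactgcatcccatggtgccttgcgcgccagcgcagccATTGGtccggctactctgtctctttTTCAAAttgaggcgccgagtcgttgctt
CENPA: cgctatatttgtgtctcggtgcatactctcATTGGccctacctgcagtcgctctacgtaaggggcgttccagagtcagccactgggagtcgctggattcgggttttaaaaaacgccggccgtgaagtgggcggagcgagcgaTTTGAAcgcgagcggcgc
E2F2: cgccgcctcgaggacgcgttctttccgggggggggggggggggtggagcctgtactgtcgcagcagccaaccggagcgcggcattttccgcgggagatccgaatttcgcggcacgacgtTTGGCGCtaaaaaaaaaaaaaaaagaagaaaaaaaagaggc
MCM6: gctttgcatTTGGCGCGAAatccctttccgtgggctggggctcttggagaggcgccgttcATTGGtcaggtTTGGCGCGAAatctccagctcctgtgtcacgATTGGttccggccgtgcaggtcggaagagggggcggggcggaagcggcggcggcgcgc

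With F11 against NS the 12 mitotic genes with TTTGAA in a window had log2 fold changes of -0.10 to 0.28, with a median of 0.19 and 11 positive. The 6 with a window but without that exact sequence had -0.04 to 0.45, with a median of 0.04 and 3 positive. Between the hairpins those 12 had log2 differences of F12 minus F11 from -0.29 to -0.08 with a median of -0.18, and the other 6, KIF20A among them, had -0.28 to -0.04 with a median of -0.13. The ranges overlapped in both comparisons, and whether these sets differ was not tested.

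Among the replication genes, those of origin licensing had mostly positive log2 fold changes with both hairpins (9 of 10 with F11 and 8 of 10 with F12, against 51.9% and 50.7% of all genes), none past the threshold. With F12 against NS, 0 of 52 members passed by limma in either direction, where 0.303% of all genes rose and 0.545% fell, and before adjustment p was under 0.05 for 5 members in the higher direction (FOXM1, MCM5, MCM2, FEN1 and E2F2) and 1 in the lower (MAD2L1), against 6.96% and 6.52% of all genes. Both F12 arrays were above NS for 18 of 52 members and below for 9, with 24% and 22.9% of all genes so placed. The 18 include GINS1, which the filter favoured in that direction. All 6 subunits of the MCM2 to MCM7 ring had positive log2 fold changes with F11 (0.07 to 0.35) and with F12 (0.04 to 0.33). These comparisons share the NS arrays. Both arrays stood above NS for 5 of 6 with F11 and 4 of 6 with F12, where 24.4% and 24% of all genes did.

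MCM2 measured 468 and 504 on the NS arrays, 545 and 599 with F11 and 570 and 557 with F12. Every SHMT1 shRNA array was above both NS arrays and the hairpins overlapped. The log2 fold changes were 0.23 with F11 (unadjusted p = 0.0117, adjusted p = 0.166) and 0.21 with F12 (unadjusted p = 0.0176, adjusted p = 0.312), and F12 minus F11 was -0.02 (95% interval -0.19 to 0.14). MCM5 measured 269 and 301 in NS, 307 and 303 with F11 and 371 and 346 with F12. F12 was clear of both other groups, with a log2 fold change of 0.33 against NS (unadjusted p = 0.0025, adjusted p = 0.147) and 0.23 against F11 (adjusted p = 0.131). MCM4 gave 0.35 with F11 and 0.21 with F12, and 0.14 and 0.07 at its dimmer probe, where F11 overlapped NS. Of the rest, MCM3, MCM6 and MCM7 gave 0.04 to 0.13 with either. The loaders ORC1, ORC6, CDC6 and CDT1 lay between -0.05 and 0.13, and CDC6 was near background.

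**Figure D5:**
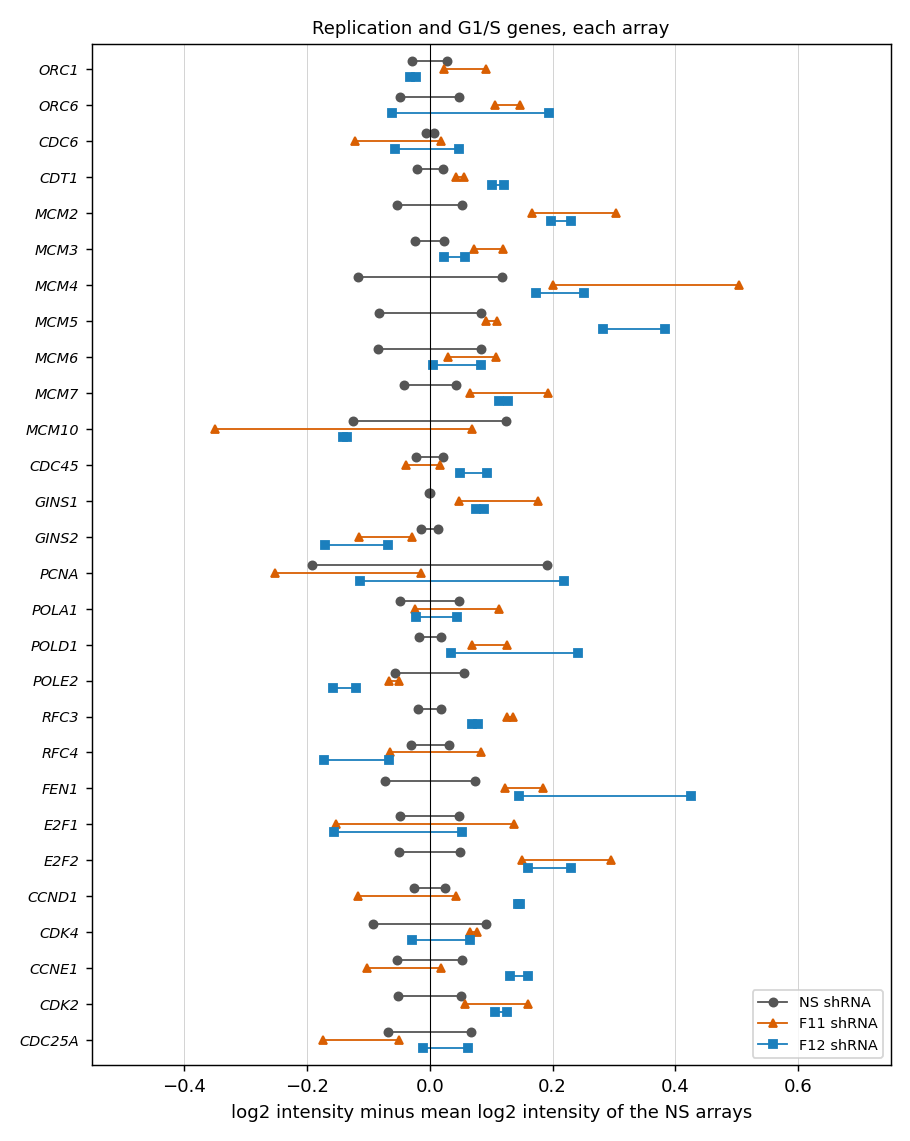
Log2 intensity minus the mean log2 intensity of the NS arrays (horizontal axis) for the 28 tested replication and G1/S genes (rows), with 1 point per array and a line joining the replicates of a group. For MCM2, MCM4, MCM5, FEN1 and E2F2 all 4 SHMT1 shRNA arrays lie to the right of both NS arrays, and for PCNA the replicates of every group are widely spread.

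PCNA, the sliding clamp that holds polymerases on DNA, measured 702 and 539 on the NS arrays, 609 and 516.5 with F11 and 568.5 and 716 with F12. All groups overlapped, and the log2 fold changes of -0.13 and 0.05 had 95% intervals of -0.50 to 0.23 and -0.31 to 0.42. FEN1, which trims Okazaki fragments, gave 0.15 with F11 and 0.28 with F12 (unadjusted p = 0.0233, adjusted p = 0.343), and 0.08 and 0.29 at its dimmer probe. The clamp loader subunit RFC3 gave 0.13 and 0.07 and RFC4 0.01 and -0.12. POLA1, POLD1 and POLE2, of the replicative polymerases, gave 0.04, 0.10 and -0.06 with F11 and 0.01, 0.14 and -0.14 with F12. The helicase factors differed among themselves: CDC45 gave -0.01 and 0.07, GINS1 0.11 and 0.08, GINS2 -0.07 and -0.12, and MCM10 -0.14 and -0.14. For GINS2 all 4 SHMT1 shRNA arrays (310 to 342) were below both NS arrays (345.5 and 352), which no other member showed at its brightest probe. The dimmer probes of MCM10 and PTTG1 showed it as well.

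The activators of S phase genes E2F1 and E2F2 are a pair of related factors. E2F1 measured 122 and 114 in NS, 130 and 106 with F11 and 106 and 122 with F12. The groups overlapped fully. E2F2 measured 222 and 238 in NS, 255 and 282 with F11 and 269 and 257 with F12. All 4 SHMT1 shRNA arrays were above NS, with log2 fold changes of 0.22 (adjusted p = 0.194) and 0.19 (adjusted p = 0.374).

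The G1 cyclins start the cycle with CDK4 and CDK2. CCND1, cyclin D1, measured 2256 and 2337 in NS, 2367 and 2118 with F11 and 2536 and 2544 with F12. CCNE1, cyclin E1, measured 176 and 189 in NS, 170 and 185 with F11 and 199.6 and 204 with F12. For both genes F11 overlapped NS and the F12 arrays were above all 4 others. F12 minus F11 was 0.18 for CCND1 (unadjusted p = 0.032, adjusted p = 0.193) and 0.19 for CCNE1 (unadjusted p = 0.0277, adjusted p = 0.178). With MCM5 these were the 3 of 52 members higher in F12 at an unadjusted p under 0.05, a smaller share than the 11.1% of all genes. The cyclin partners CDK4 and CDK2 gave log2 fold changes of 0.07 and 0.11 with F11 and 0.02 and 0.12 with F12, and CDC25A, the phosphatase that activates CDK2, gave -0.11 and 0.03.

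Averaged over the hairpins, 0 of 52 members passed against NS by limma, and before adjustment p was under 0.05 for 11 that were higher and 0 that were lower. Over all genes 0.21% rose and 0.436% fell after adjustment, and 6.9% and 5.77% did so before it. All 4 SHMT1 shRNA arrays were above both NS arrays for 15 members and below for 1, where 8.35% and 7.28% of all genes were so placed. Of the 15, CDT1, MCM2, MCM4, MCM5 and MCM7 are licensing genes and GINS1, POLD1, RFC3 and FEN1 elongation genes. The rest were the G1/S genes E2F2 and CDK2, and FOXM1, KIF20A, BIRC5 and MKI67. GINS1 was tested only through SHMT1 shRNA arrays, so the filter favoured its place among the 15. The 95% intervals of all 52 members lay within 2-fold of no change in each comparison, and within 1.5-fold for 52 with F12 against NS and between the hairpins and for 50 with F11 against NS. The median within-group standard deviation was 0.08 on the log2 scale for the members and 0.07 for all tested genes.

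Other genes of the same pathways were read from lists outside the 53. Of 49 measured other mitosis genes, CDCA8, borealin of the same passenger complex as BIRC5, was the one that rose with F11 (349 ± 9.0 in NS and 443 ± 19.0 with F11, SD, n = 2 each, log2 fold change 0.34, adjusted p = 0.0416), 0 fell, and the median was 0.06. That is near the 1.84% of all genes that rose. Both F11 arrays were above NS for 11 of the 49 (22.4%) and below for 3 (6.12%), where 24.4% and 20.3% of all genes were. Their log2 fold changes with F11 ran from -0.39 (ECT2) to 0.34 (CDCA8), with 34 positive and 15 negative. Between the hairpins 2 of the 49 were lower with F12 after adjustment, the phosphatase CDKN3 (-0.34, adjusted p = 0.0322) and the kinetochore motor CENPE (-0.25, adjusted p = 0.0498), and 0 were higher, which is near the 4.12% of all genes that were lower. The median of the 49 was -0.12, with 38 of 49 negative and 22.4% positive, where 49.2% of all genes were positive. Both F12 arrays were below both F11 arrays for 23 (46.9%) and above for 5 (10.2%), where 26.9% and 24.5% of all genes were. Without F11 replicate 1 CDCA8 kept its call, and without any other array its adjusted p was 0.102 to 0.229, while CDKN3 (0.0506 to 0.2202) and CENPE (0.0758 to 0.266) missed the threshold without any 1 of the arrays. With F12 against NS 0 passed, while unadjusted p was under 0.05 for 5 that were lower and 0 that were higher, against 6.52% and 6.96% of all genes.

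The 40 other replication genes had medians of 0.00 with F11, 0.02 with F12 and -0.01 between the hairpins, with 0 called by limma in each. Over all genes 1.84% rose and 1.76% fell with F11, and 0.303% and 0.545% with F12. Between the hairpins 3.45% were higher and 4.12% lower with F12. Before adjustment p was under 0.05 for 5 in the higher direction and 1 in the lower with F11, against 10.6% and 8.38% of all genes. With F12 it was so for 3 and 1, against 6.96% and 6.52%. Of 18 measured G1/S regulators, E2F5, an E2F of the repressor branch, was lower with F12 than with F11 (-0.48, adjusted p = 0.0217) and CDK6, a partner of D-type cyclins, was higher (0.36, adjusted p = 0.0347). Calls for 1 of 18 in each direction are near the 4.12% and 3.45% of all genes. E2F5 measured 488 and 569 in NS, 654 and 635 with F11 and 445 and 481 with F12. CDK6 measured 589 and 655 in NS, 545 and 579 with F11 and 703 and 736 with F12. NS lay between the hairpins for both genes, without overlap, and neither gene passed against NS with F11 or F12. E2F5 missed the threshold between the hairpins without F12 replicate 1 or 2 (adjusted p = 0.172 or 0.109), and CDK6 without those or F11 replicate 1 (0.161, 0.235 or 0.0963). Of the 5 measured CDK inhibitors 0 passed in a comparison by limma. Before adjustment p was under 0.05 against NS for CDKN1B, p27, where F11 minus NS was 0.24 (adjusted p = 0.231) and F12 minus NS 0.26 (adjusted p = 0.306), and for CDKN2D at -0.15 with F11.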

How the data were processed

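The arrays were grouped by the sample labels, 2 each for NS, F11 and F12. The authors processed the scans in GenomeStudio, quantile-normalized them in lumi and deposited linear intensities, 1 value for each probe on each array (70.9 to 15895). For background correction the step used is not given in the sources. A deposited table of non-normalized signals has 12 columns whose names match no label and was not used.

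Intensities were log2-transformed. Background was taken from the mode of all values (85.5), and a limit of 91.6 was set at its 95th percentile. Probes that exceeded the limit on 2 arrays or more were tested, 22981 of 47321, which hold 12852 genes. Probes were named from the platform annotation. Of the 53 genes' 80 probes, 75 were tested, and each gene is represented by the tested probe of highest mean intensity. Values near background understate fold changes. Differential expression was fitted to all arrays in limma 3.58.1 under R 4.3.3 (3 residual degrees of freedom, prior of 4.27), with two-sided p-values, Benjamini-Hochberg adjustment across the tested probes and a threshold of 0.05. Intervals cover 95%. The number of arrays limits the precision. The fit was tested on simulated data.

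The members, the background filter and the lists of other genes were chosen with earlier results of these data known. Array values are given for members that passed, for MCM2, PCNA, E2F1, CCNE1, CCND1, CDK1, CCNB1 and MKI67, and for CENPA, MAD2L1, FOXM1, MCM5, E2F2, E2F5, CDK6 and GINS2, which were chosen after their values were seen. Other pathway genes are named where they passed, and CDKN1B and CDKN2D were chosen after their values were seen. Alternatives were no filter, a stricter filter, normexp with an offset of 16, median centring, the replicate number as a block, an intensity trend with robust estimation, only the compared groups, the 4 SHMT1 shRNA arrays as 1 group, all probes of a gene and each array left out.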

Additional observations from a re-analysis of the deposited data

Results flagged for a closer look

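AURKA was the member whose effect differed between the hairpins by a test of the difference itself. F12 minus F11 was -0.28 on the log2 scale at its brightest probe (limma, adjusted p = 0.0343), with both F11 arrays above both NS arrays and both F12 arrays below the NS arrays. The dimmer AURKA probe gave -0.45 (adjusted p = 0.0119). The cause was not tested.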

How the results depend on the processing

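Median centring changed no call, but it could hardly do so, because quantile normalization had already given the arrays nearly equal medians (89.86 to 89.87). With no filter the same members passed, and with probes above background on all 6 arrays KIF20A (adjusted p = 0.052) was lost and 1 member passed with F11. Under the normexp correction 0 members passed with F11 and 0 between the hairpins, although the mitotic medians grew to 0.22 with F11 and -0.20 between the hairpins, and the replication medians were 0.0812 with F11 and 0.0643 averaged. Fitting the compared groups alone left 0 and 0. Over all 12852 genes the main fit called 236 higher and 226 lower with F11, and 443 and 530 between the hairpins. Under normexp these counts were 222 and 193 with F11, and 338 and 443 between the hairpins. With the compared groups alone they were 88 and 80, and 316 and 359. With the intensity trend CDC25C (adjusted p = 0.0448) passed between the hairpins and the brightest AURKA probe did not (0.106). The dimmer AURKA probe kept its call between the hairpins under normexp (0.0425), the trend (0.0144), the compared groups alone (0.0225) and the block (0.027). Over all tested probes the mitotic median with F11 was 0.13, and counting any probe added AURKA with F11. Deviations of same-numbered replicates correlated at 0.456 between NS and F11, -0.291 between NS and F12 and -0.31 between F11 and F12. The numbers therefore do not pair F12 with the other groups. A pairing with the F12 numbers exchanged was not tested, and the sources give none. With the replicate number as a block, 1 member passed with F11 (KIF20A, while BIRC5 had 0.0779). Between the hairpins 0 passed under that block (AURKA 0.0616 at its brightest probe). Over all genes the block left 152 higher and 151 lower with F11, and 361 and 421 between the hairpins. Leaving out each array in turn gave 0 to 4 members with F11, 0 to 3 between the hairpins (BIRC5, CENPA and KIF20A without F11 replicate 1, MAD2L1 without F11 replicate 2) and 0 to 1 averaged (KIF20A without F11 replicate 1), with 0 each time for F12 against NS. The mitotic median then ran from 0.15 to 0.20 with F11, from -0.19 to -0.15 between the hairpins and from -0.0149 to 0.0293 with F12, and the replication median from 0.0556 to 0.0746 with F11, from 0.0619 to 0.0917 with F12, from -0.0354 to 0.0348 between the hairpins and from 0.0489 to 0.0779 averaged. For SHMT1 the adjusted p ran from 0.00142 to 0.0586 with F11, from 0.0036 to 0.157 between the hairpins and from 0.00461 to 0.291 averaged. Of the 5 other pathway genes that passed, E2F5 lost its call only without an F12 array, and CDCA8, CDKN3, CENPE and CDK6 under normexp, the intensity trend and several array removals. Depth does not apply to arrays; probes near background, as of MKI67, CDC6 and GINS1, limit what can be read of those genes.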
